A study of Mus musculus with 24 samples.

Results

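The comparison described here sets 2 input libraries against 6, all from NIH3T3 cells, an established line of mouse embryonic fibroblasts. The headers of the deposited table call replicates 1 to 3 of each group lysed and leave replicate 4 as the intact set. These words were not defined further in the sources used here. The 8 input libraries are those of whole cells, out of 24 libraries in the series, and were taken by their column names with no use of measured values. The intact inputs were 1 library with a miR-29b mimic and 1 with a scrambled mimic, and the lysed inputs were 3 libraries with each mimic. Both mimics carried the light-crosslinkable nucleoside 3-cyanovinylcarbazole, abbreviated CNVK, and per the labels were transfected at 10 nM. All cells received a mimic, medium was added at 24 h, and harvest followed 8 h later. Libraries were made from 5 ng of total RNA, or 6 ng in the case of the intact miR-29b input, and cDNA synthesis used both random hexamers and oligo-dT. An input is RNA taken before the mimic and what is bound to it are recovered; the recovered RNA is the pulldown. Each intact library is also the only replicate 4 of its group, so the procedure and anything else that set replicate 4 apart cannot be told apart.

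Cells that sense foreign RNA make type I interferon, which acts through the receptor, Irf9 and its partner transcription factors, and an element in target promoters to raise a large set of antiviral genes. Dividing fibroblasts make histone mRNAs in S phase and the genes of spindle, kinetochore and cytokinesis in G2 and mitosis, while resting or crowded cultures make fewer of both. Many lysosomal genes share a promoter E-box read by basic helix-loop-helix factors, and proteasome genes are known to be raised together when protein degradation is impaired. MiR-29b pairs through its seed with many collagen and other matrix mRNAs, and with mRNAs of DNA demethylases and of Mcl1.

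Counts listed per input library ranged from 20844587 to 55153996, with the highest in the intact miR-29b input, and 13342 to 13487 genes had a count in each. On the first principal component of the inputs, which held 71.13% of the variance, the intact libraries lay at 92.16 for miR-29b and 61.24 for scrambled and the lysed ones at −27.58 to −23.01. Log2 levels of lysed replicates of 1 mimic correlated across genes at 0.985 to 0.994, and those of an intact library with its lysed replicates at 0.893 to 0.934. Lysed replicate 3 had a level between those of replicates 1 and 2 for 47% (scrambled) and 47.5% (miR-29b) of all genes tested, and results are also given without it. Lysed replicates still differed by more than sampling noise (chi-square per gene 7.94 or more), but the labels name no separate cultures. The p-values of the main test rest on this spread, which may be technical, and on how far the intact minus lysed difference varied between mimics. The test of whether the difference depends on the mimic rests on the lysed spread alone. The gene Gm26924, which overlaps ribosomal RNA, took 26.78% and 29.97% of listed counts in the intact miR-29b and scrambled inputs and 21.65% to 24.16% in the lysed inputs.

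Differences were broad, with 6643 genes (54.5% of those tested) called in the same direction under both mimics. Of 12178 genes tested, 3130 (25.7%) were called higher in the intact inputs and 3513 (28.8%) lower. A gene was called where the edgeR quasi-likelihood test, with Benjamini-Hochberg adjustment over all genes tested, gave an adjusted p under 0.05, and where under each mimic the intact library lay outside all 3 lysed libraries on the side of the difference. For called genes, separation from the lysed libraries of the same mimic follows from this rule. Where it is stated below it describes the levels and is no further evidence. With 1 intact input left out, the rule asked for separation under the other mimic only. Counts given below without an intact input therefore follow a weaker rule. At least 2-fold were 1116 called genes (9.16%) upward and 1259 (10.3%) downward. At least 8-fold differences were mostly downward, with 181 genes lower (1.49%) against 25 higher (0.205%). With the library totals that the authors used for their CPM and no scaling factor, the median of all genes moved to −0.22 on the log2 scale and the calls became 1924 higher and 4768 lower, so that 28.8% and not 47.1% of the called genes were higher. Levels below are in CPM, counts scaled by each library's listed total and its TMM factor, and differences are log2 values, intact minus lysed, with the standard error (SE) of the fit over 8 libraries. With lysed replicates 1 and 2 alone, 2356 genes were higher and 2761 lower, of which 2343 and 2749 were also called with all 6.

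**Figure D1:**
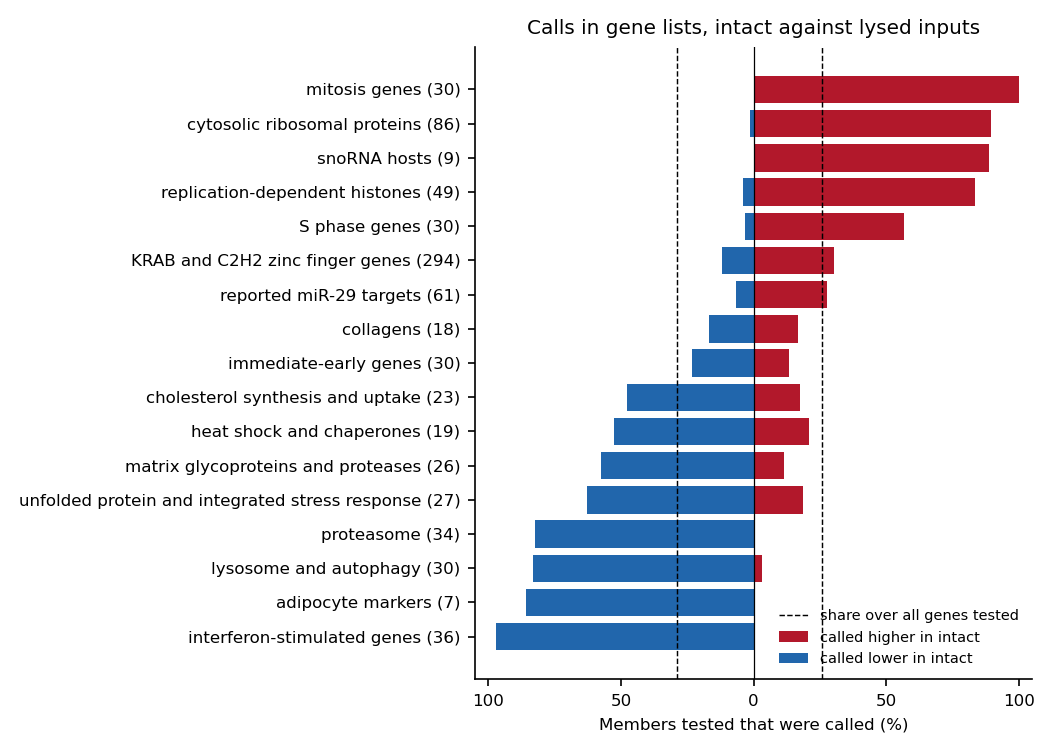
Horizontal bars give, for 17 gene lists, the percentage of tested members called higher (red, to the right) or lower (blue, to the left) in the intact inputs, with the number tested in brackets; dashed lines mark the percentages over all genes tested. Mitosis genes (100% higher), ribosomal protein genes and histones stand far to the right of the dashed line at 25.7%, and interferon-stimulated, adipocyte, lysosomal and proteasome genes far to the left of the one at 28.8%.

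Promoter windows of 5 genes are printed because the lists they stand for moved as groups in opposite directions and share promoter letters; the windows run from 250 bases before to 50 bases after each gene's start, on the gene's strand, and come from RefSeq on GRCm38.p6. The letters searched were GAAA, any 2 bases and GAAA again, a core of the interferon-stimulated response element, then TTTGAA with CCAAT, the core of the cell cycle homology region and the CCAAT box, both known from mitotic genes, and CACGTG, the E-box core shared by lysosomal genes. All were searched on both strands, and in each window capitals mark the matches to the letters of that gene's own list, while matches to the others stay in lower case. Ifit1, whose product binds viral RNA ends, has its window at chr19:34640639-34640938 on the plus strand, and Igtp, a GTPase of cell-autonomous immunity, at chr11:58199306-58199605 on the plus strand.
Ifit1: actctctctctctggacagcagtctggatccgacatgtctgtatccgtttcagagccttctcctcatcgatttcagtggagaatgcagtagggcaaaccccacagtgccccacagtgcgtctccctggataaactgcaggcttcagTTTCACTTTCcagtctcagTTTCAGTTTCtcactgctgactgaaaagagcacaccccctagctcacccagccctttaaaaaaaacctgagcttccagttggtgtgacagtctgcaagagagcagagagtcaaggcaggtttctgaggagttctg
Igtp: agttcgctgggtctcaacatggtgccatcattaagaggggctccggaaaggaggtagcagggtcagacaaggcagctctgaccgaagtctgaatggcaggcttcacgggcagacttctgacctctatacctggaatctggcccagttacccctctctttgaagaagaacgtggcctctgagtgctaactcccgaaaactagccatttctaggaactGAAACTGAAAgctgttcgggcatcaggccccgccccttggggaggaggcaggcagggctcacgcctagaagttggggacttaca
Cenpa, the centromeric histone H3 variant, has its window at chr5:30666636-30666935 on the plus strand, and Ccnb2, a mitotic B-type cyclin, at chr9:70421505-70421804 on the minus strand.
Cenpa: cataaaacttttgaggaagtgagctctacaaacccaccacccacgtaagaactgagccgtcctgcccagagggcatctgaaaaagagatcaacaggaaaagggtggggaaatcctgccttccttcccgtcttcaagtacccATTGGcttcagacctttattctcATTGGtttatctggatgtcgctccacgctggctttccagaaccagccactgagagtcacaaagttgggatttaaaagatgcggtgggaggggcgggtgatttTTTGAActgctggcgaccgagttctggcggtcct
Ccnb2: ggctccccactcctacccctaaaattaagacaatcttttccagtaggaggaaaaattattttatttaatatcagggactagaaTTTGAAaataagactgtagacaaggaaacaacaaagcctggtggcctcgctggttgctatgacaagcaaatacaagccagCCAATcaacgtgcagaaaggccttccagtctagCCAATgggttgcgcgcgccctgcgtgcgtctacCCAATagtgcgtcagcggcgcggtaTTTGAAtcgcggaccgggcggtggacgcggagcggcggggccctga
Gla, the lysosomal alpha-galactosidase, has its window at chrX:134600956-134601255 on the minus strand.
Gla: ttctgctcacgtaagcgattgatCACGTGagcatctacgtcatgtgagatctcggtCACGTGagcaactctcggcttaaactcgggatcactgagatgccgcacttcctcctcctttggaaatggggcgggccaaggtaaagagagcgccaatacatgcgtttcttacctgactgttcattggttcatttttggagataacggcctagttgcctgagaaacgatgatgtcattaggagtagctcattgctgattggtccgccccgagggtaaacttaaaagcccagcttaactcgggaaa
The mature miR-29b-3p that the mimic is named for is printed with its seed, bases 2 to 8, in capitals.
miR-29b-3p: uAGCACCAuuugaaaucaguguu

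The interferon element was in the window of 16 of 26 interferon-stimulated genes with a window (61.5%), against 3.8% of 8495 tested genes with one and 3.44% of all 32851 windows. Among genes called lower by at least 8-fold 31.3% held it, among all genes called lower 5.89%, and among those called higher 2.82%. TTTGAA was in 20 of 26 mitosis genes (76.9%) against 13.9% of tested genes and 17.9% of all windows, and CCAAT in 22 of 26 (84.6%) against 43.8% and 37.4%. Among all genes called higher 16.3% held TTTGAA and 46.4% CCAAT, and among those called lower 13.6% and 43.5%. For genes called higher by at least 4-fold the shares were 26.9% and 55.9%. CACGTG was in 11 of 21 lysosome and autophagy genes (52.4%) against 12.0% of tested genes and 7.15% of all windows. Among all genes called lower the share with CACGTG was 12.5%. A match describes these letters in these windows and does not show that a factor binds there.

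Interferon-stimulated genes were the most strongly lowered group. Of 36 tested, 35 were called lower in the intact inputs, 0 were called higher, and the median difference was −3.52, against −0.0018 over all genes tested. Their summed level was 9940 to 11820 CPM in the 6 lysed inputs, 1570 CPM in the intact scrambled input and 2020 CPM in the intact miR-29b input. Without the intact miR-29b input 36 of 36 were lower, and without the intact scrambled input 35 were lower and Trim25 higher. Their median was −3.31 under the scrambled and −3.67 under the miR-29b mimic.

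Among the effectors, Mx1, a GTPase that blocks viral nucleoproteins (chr16:97447035-97462906 on GRCm38.p6), was at 29.7 CPM in the lowest lysed input, 43.1 at the median and 56.2 in the highest, and at 1.11 and 0.558 CPM in the intact scrambled and miR-29b inputs. Both intact libraries lay far below every lysed one, with a difference of −5.70 ± 0.13 (SE; edgeR adjusted p = 3.65e-08). Ifit1 was at 571 to 991 CPM in the lysed inputs (median 769.8) and at 50.3 CPM (scrambled) and 24.8 CPM (miR-29b) in the intact ones, a difference of −4.40 ± 0.09 (edgeR adjusted p = 2.64e-08). Igtp was at 188 to 299 CPM (median 251), against 16.4 and 9.51 CPM, and Oasl2, an oligoadenylate synthetase-like protein, at 200.2 to 228 CPM (median 216), against 21.7 and 19.45 CPM. For both genes the intact libraries were again the lowest 2 of 8, with differences of −4.27 ± 0.09 and −3.39 ± 0.07 (edgeR adjusted p = 2.64e-08 for each). Others of the 10 largest downward differences among called genes of at least 5 CPM were Ifit3 at −5.29, Ifit2 at −5.21, the guanylate-binding GTPases Gbp3 at −5.08 and Gbp2b at −4.99, and the interferon-inducible GTPases Tgtp1 at −5.25 and Gm12250 at −6.57. Cxcl10, a chemokine that draws T cells, was at 22.4 to 54.1 CPM in the lysed and 0.699 and 0.666 CPM in the intact inputs (−5.65 ± 0.24, edgeR adjusted p = 7.74e-07).

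Genes that sense RNA or transmit the signal were lower as well. Ddx58 (RIG-I), a sensor of viral RNA, was at 67.9 to 95.6 CPM in the lysed inputs (median 83.7) and at 19.3 and 14.95 CPM in the intact scrambled and miR-29b inputs (−2.275 ± 0.07). Irf9, the DNA-binding subunit of the interferon-activated complex, was at 46.8 to 59.4 CPM (median 51.4), against 14.5 and 10.95 CPM (−2.04 ± 0.12). Neither gene's intact libraries overlapped the lysed ones. Irf7, which amplifies the response, stood at −3.38 ± 0.16, Irf1 at −1.72 ± 0.09 and the class I light chain B2m at −1.97 ± 0.12 (edgeR adjusted p of these 5 from 1.79e-07 to 5.09e-06). The one member not called was Trim25, a ubiquitin ligase acting on RIG-I. It was at 175 to 196 CPM in the lysed inputs, at 64.2 CPM in the intact scrambled input and at 342 CPM in the intact miR-29b input, thus below all lysed libraries under one mimic and above all under the other, and its pooled difference of −0.02 flipped sign with RLE factors. Rsad2 (viperin) and Isg15 (a ubiquitin-like modifier) were lower under both mimics by unequal amounts, −5.67 and −2.82 for Rsad2 and −3.28 and −4.87 for Isg15 under scrambled and miR-29b.

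**Figure D2:**
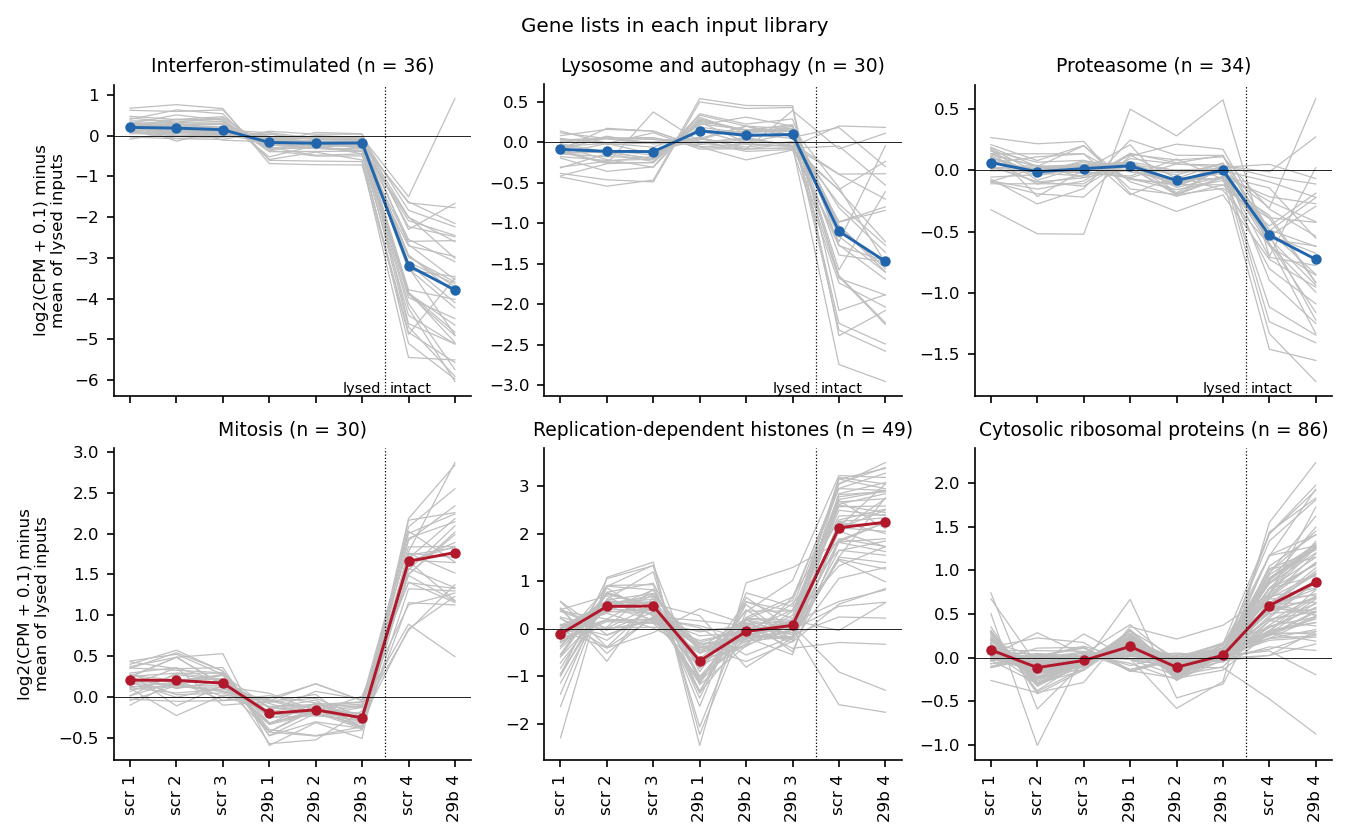
Each panel plots 1 gene list over the 8 input libraries, lysed to the left of the dotted line and intact to the right (scr, scrambled; 29b, miR-29b; numbers are replicates). Grey lines are genes, as log2(CPM + 0.1) minus that gene's mean over the lysed inputs, and the coloured line is the median of the members; interferon-stimulated, lysosome and proteasome genes drop in both intact libraries, while mitosis, histone and ribosomal protein genes rise.

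Among called genes of at least 5 CPM, the lowest fitted difference was that of Mlana, a melanosome antigen (chr19:29697541-29708447). It had 2 reads in the intact inputs together, 0 of them under miR-29b, and 1727 reads in the lysed inputs, at 8.96 to 11.8 CPM (median 9.77). After scaling to library size the lysed level was 407 times the intact one, with an exact 95% interval of 112.5 to 3362 that covers counting error only. Apod, a lipid-binding lipocalin that fibroblasts make when they stop dividing, was at 28.6 to 32.6 CPM in the lysed inputs (median 29.9) and at 0.321 CPM (scrambled) and 0.193 CPM (miR-29b) in the intact ones. The intact libraries lay below all lysed ones, by −6.895 ± 0.18 (edgeR adjusted p = 5.92e-08).

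Markers of fat cells were also lower. Of 7 adipocyte markers tested, 6 were called lower and 0 higher, with a median of −1.78 and a summed level of 1314 to 1525 CPM in the lysed and 425 and 539 CPM in the intact scrambled and miR-29b inputs. Pparg, the transcription factor of fat cell formation, was at 194.5 to 226 CPM (median 212), against 55.5 and 50.8 CPM, with no overlap (−1.99 ± 0.06, edgeR adjusted p = 1.63e-07). Lpl, which releases fatty acids from lipoproteins, was at −1.78 ± 0.19, the lipid droplet coat gene Plin2 at −1.48 ± 0.08 and the fatty acid carrier Fabp4 at −1.05 ± 0.13. Adipoq, a hormone of fat cells, had 3 reads in the intact inputs, 0 of them under miR-29b, and 576 in the lysed ones, a ratio of 90.5 (exact 95% interval 30.8 to 440.0). Cebpa, a second fat cell factor, had a difference of −0.51 ± 0.38 and was not called. In bulk RNA, fewer cells of a type and less RNA per cell cannot be told apart. The fibroblast list summed to 4483 to 4642 CPM in the lysed and 5418 and 7359 CPM in the intact scrambled and miR-29b inputs. A sum follows its most abundant members. In both intact inputs S100a4 had the most reads of the list, 83951 under scrambled and 126295 under miR-29b. The list's median difference was −0.11 under scrambled and 0.38 under miR-29b. Of 11 members 1 was called higher (9.09%) and 3 lower (27.3%), against 25.7% and 28.8% over all genes tested. Without the intact scrambled input 6 were higher and 3 lower, and without the intact miR-29b input 1 and 5. Markers of other cell types were few and low: 1 leukocyte, 1 endothelial, 1 epithelial, 2 neural and 3 muscle markers could be tested, of which Cd68, Vwf and Gfap were called lower (−2.21, −2.84 and −1.69) and none higher. The part of other cell types in the results was not tested.

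Lysosomal genes were lower as a group. Of 30 lysosome and autophagy genes, 25 were called lower and 1 higher, Atg5, with a median of −1.18, and the summed level was 4521 to 5797 CPM in the lysed and 2074 and 1909 CPM in the intact scrambled and miR-29b inputs. Gla was at 106 to 113 CPM in the lysed inputs (median 108) and at 16.1 and 13.9 CPM in the intact ones, with no overlap (−2.86 ± 0.08, edgeR adjusted p = 9.74e-08). Npc2, which carries cholesterol out of the lysosome, was at 455 to 533 CPM (median 499.9), against 147.5 and 119.9 CPM (−1.89 ± 0.08, edgeR adjusted p = 5.58e-07). The cathepsin proteases Ctsd and Ctsb stood at −2.35 ± 0.16 and −2.22 ± 0.13, and the autophagy receptor Sqstm1 at −1.78 ± 0.08. By the test of the difference between mimics, it was more negative under miR-29b for 17 members and less negative or more positive for 3. Over all genes tested the shares below and above scrambled were 16.4% and 16.5%. The upward call of Atg5, at 0.19 ± 0.06, ended with the authors' totals, where it was −0.024, with all 16 whole-cell libraries in the fit, with lysed replicates 1 and 2 only, and without replicate 3 of either mimic.

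Proteasome genes were lower by smaller amounts. Of 34 subunits, 28 were called lower and 0 higher, with a median of −0.62; without the intact scrambled input 2 were higher. The ATPase subunits led: Psmc2 was at 124 to 141 CPM in the lysed inputs (median 130.2) and at 47.7 and 44.7 CPM in the intact scrambled and miR-29b inputs. That is −1.51 ± 0.07 with no overlap (edgeR adjusted p = 1.06e-06), beside −1.53 ± 0.10 for Psmc5 and −1.23 ± 0.08 for Psmc1.

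Stress genes were divided. In the unfolded protein and integrated stress response list, 17 of 27 were called lower (63.0%) and 5 higher (18.5%), with a median of −0.48. Over all genes tested the shares were 28.8% lower and 25.7% higher. Ddit3 (CHOP), a transcription factor of prolonged stress, was at 887 to 1218 CPM in the lysed inputs (median 1054) and at 189.9 and 135.0 CPM in the intact scrambled and miR-29b inputs, below every lysed library (−2.71 ± 0.10, edgeR adjusted p = 2.84e-07). The endoplasmic reticulum chaperones Hspa5 (BiP) and Calr were at −1.71 ± 0.08 and −0.89 ± 0.06. In contrast, Atf4, which drives the integrated stress response, was higher at 0.61 ± 0.08, and its target Psat1, an enzyme of serine synthesis, at 1.37 ± 0.13. Of 19 heat shock and chaperone genes 10 were lower (52.6%) and 4 higher (21.05%), the co-chaperones Stip1 and Bag3 at −0.997 ± 0.06 and −1.06 ± 0.11. Nqo1, a detoxifying enzyme under Nrf2, was at 38.0 to 43.6 CPM in the lysed and 6.85 and 7.99 CPM in the intact inputs (−2.45 ± 0.11, edgeR adjusted p = 1.08e-06). Its list of 22 had 9 lower (40.9%) and 4 higher (18.2%). The list's median was −0.12, or −0.122 without the intact miR-29b input and −0.256 without the intact scrambled input.

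Matrix and sterol genes moved both ways. Of 26 matrix glycoproteins and proteases 15 were called lower (57.7%) and 3 higher (11.5%), against 28.8% and 25.7% over all genes tested. Their median was −0.48, or −0.645 without the intact scrambled input and −0.383 without the intact miR-29b input. Mmp14, a membrane-anchored collagenase, was at 187 to 204 CPM in the lysed inputs (median 199) and at 53.7 and 40.5 CPM in the intact ones (−2.08 ± 0.09, edgeR adjusted p = 1.08e-06). The antiangiogenic Thbs2 stood at −1.67 ± 0.07, the basement membrane protein Nid1 at −1.70 ± 0.09, and the secreted collagenase Mmp13, the lowest of the list, at −3.95 ± 0.39. The microfibril protein Fbn1 was the highest at 1.90 ± 0.43, but at 0.45 under scrambled and 2.89 under miR-29b. Of 23 genes of cholesterol synthesis and uptake 11 were lower (47.8%) and 4 higher (17.4%). The enzymes Fdft1, Cyp51 and Tm7sf2 stood at −1.32 ± 0.07, −1.01 ± 0.06 and −1.63 ± 0.10. Immediate-early genes, which respond within minutes to serum or handling, showed 7 lower and 4 higher of 30. Both shares, 23.3% and 13.3%, were below the 28.8% and 25.7% over all genes tested. The list's median difference was −0.35 without the intact miR-29b input and 0.36 without the intact scrambled input. In this list Nr4a1 stood at −2.32 ± 0.15, Atf3 at −1.99 ± 0.10 and Egr1 at −1.08 ± 0.18, and Fos at −0.18 ± 0.33, which was not called.

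Mitosis genes were higher without exception. All 30 tested were called higher in the intact inputs, with a median of 1.78, and their sum was 356 to 459 CPM in the lysed inputs and 1312 and 1539 CPM in the intact scrambled and miR-29b inputs. Cenpa was at 33.5 to 38.8 CPM in the lysed inputs (median 33.9) and at 139 and 164 CPM in the intact ones (2.12 ± 0.07, edgeR adjusted p = 2.13e-07). Ube2c, which lets the anaphase-promoting complex tag cyclins, was at 30.6 to 36.7 CPM (median 32.0), against 118.5 and 119 CPM, and Ccnb2 at 17.1 to 21.4 CPM (median 18.6), against 76.7 and 59.0 CPM. In both genes the 2 intact libraries were the highest of 8, by 1.84 ± 0.07 and 1.85 ± 0.09 (edgeR adjusted p = 5.58e-07 and 1.53e-06). The smallest difference was that of the kinase Cdk1, 0.70 ± 0.07, and the largest that of cyclin A2, Ccna2, 2.555 ± 0.18. Under miR-29b the difference was larger for 17 of the 30 and smaller for 0, against 16.5% and 16.4% over all genes tested. Top2a was among the 17 (3.26 against 1.399 under scrambled). Without the miR-29b intact library the median was 1.42.

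S phase genes differed less than mitosis genes. Of 30, 17 were called higher (56.7%) and 1 lower (3.33%), against 25.7% and 28.8% over all genes tested, with a median of 0.50. Uhrf1, which carries DNA methylation through replication, was at 8.39 to 15.2 CPM in the lysed inputs (median 11.05) and at 28.0 and 23.15 CPM in the intact ones (1.22 ± 0.11, edgeR adjusted p = 4.13e-05). Tk1 (thymidine kinase) was at 1.00 ± 0.09 and E2f1, a transcription factor of S phase entry, at 0.88 ± 0.08, and the replication clamp Pcna at 0.11 ± 0.09, which was not called and turned to −0.11 with the authors' totals. Ccne2, a cyclin of S phase entry, stood out at 3.53 ± 0.83, but 77.2 CPM in the intact miR-29b input against 4.92 CPM in the scrambled one carried that value. Without the miR-29b intact library 16 of the 30 were higher and 6 lower, and with the authors' totals 12 and 7.

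Histone mRNAs of the replication-dependent kind, which end in a stem-loop in place of a poly(A) tail, were among the most raised. Of 49 tested, 41 were called higher and 2 lower, with a median of 2.28, and the sum was 275 to 445 CPM in the lysed inputs and 977 and 1072 CPM in the intact scrambled and miR-29b inputs. Hist1h3b was at 0.959 to 1.33 CPM (median 1.16), against 8.80 and 10.4 CPM (3.05 ± 0.15, edgeR adjusted p = 1.44e-06), and Hist1h3d at 2.03 to 3.54 CPM (median 2.83), against 18.4 and 19.3 CPM (2.73 ± 0.17). No lysed library came near the intact ones for either gene. The 2 called lower were Hist1h1c at −1.68 ± 0.08, with 97.3 to 104.8 CPM in the lysed and 33.7 and 30.2 CPM in the intact inputs, and Hist1h2bc at −1.11 ± 0.12. These 2 genes are known to make polyadenylated transcripts outside S phase as well. Histone genes are near-identical copies and the counting rule for shared reads is not given in the sources used here, so values of single members are uncertain.

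Small structural RNAs and several noncoding RNAs were higher too. Of 5 small RNAs tested, out of 21 in the table, 4 were called higher and 1 lower. Rn7sk, the 7SK RNA that holds back transcription elongation (chr9:78175302-78175633), was at 106 to 135 CPM in the lysed inputs (median 121) and at 854 and 1037 CPM in the intact scrambled and miR-29b inputs. This 7.81-fold difference, 2.965 ± 0.10 on the log2 scale, had no overlap (edgeR adjusted p = 1.85e-07). Rmrp, the RNA of an RNase that cuts pre-rRNA and mitochondrial primers, was at 10.1 to 18.9 CPM (median 16.9), against 43.5 and 64.6 CPM (1.80 ± 0.23), and Snord104, a guide of ribosomal RNA methylation, at 2.41 ± 0.28. Rny1, the Y RNA, had under 1 CPM in every input and a difference of −1.79 ± 0.50, a call that ended with lysed replicates 1 and 2 only (edgeR adjusted p = 0.0508), with all 16 whole-cell libraries (0.063) and without the intact miR-29b input (0.104). Transcripts annotated as misc_RNA had 13 of 16 called higher (81.2%), and lincRNAs 41.9% higher and 11.5% lower, against 25.7% and 28.8% over all genes tested. Pseudogenes, with 27.8% higher and 6.81% lower, were near the overall share for higher calls and below it for lower ones. Of 11 miRNA genes 0 were called higher and 0 lower.

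Of 9 genes that host small nucleolar RNAs in their introns, 8 were higher and 0 lower, with a median of 1.02 that became 1.64 without the intact scrambled input. Dancr stood at 3.98 ± 0.30 (0.193 to 0.868 CPM in the lysed inputs, 4.92 and 11.4 CPM in the intact ones), Snhg3 at 1.91 ± 0.13 and Snhg7 at 1.91 ± 0.14. Xist, the RNA that coats an inactive X chromosome, had the largest upward difference of all named genes. It was at 4.99 to 6.40 CPM in the lysed inputs (median 5.80), 64.3 CPM in the intact scrambled and 179.9 CPM in the intact miR-29b input (4.31 ± 0.27, edgeR adjusted p = 5.47e-06). Malat1, a nuclear speckle RNA, was at 68.1 to 109 CPM (median 84.2), against 273 and 349 CPM (1.87 ± 0.15), whereas Neat1, the scaffold of paraspeckles, was not called: its 18.8 CPM in the intact scrambled input lay below and its 54.7 CPM in the intact miR-29b input above the lysed range of 36.5 to 50.4 CPM. In the inputs of nuclear and cytoplasmic fractions, 1 library each, the median log2 ratio of nucleus over cytoplasm under scrambled was −0.13 for genes called higher, −0.11 for genes called lower and 0.0147 over all genes tested, and under miR-29b it was −0.11, −0.13 and 0.0178. Genes called at least 2-fold higher had medians of 0.0593 under scrambled and 0.114 under miR-29b, and those at least 2-fold lower −0.132 and −0.142, so the order depended on the size of the difference and on the mimic.

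mRNAs of cytosolic ribosomal proteins, whose translation is set by growth signals, were higher by moderate amounts. Of 86, 77 were called higher and 1 lower, with a median of 0.69, and the summed level was 55930 to 65250 CPM in the lysed and 102700 and 131300 CPM in the intact scrambled and miR-29b inputs. Rpsa, a small-subunit protein, was at 2111 to 2341 CPM (median 2247), against 6077 and 7958 CPM, with no overlap (1.64 ± 0.09, edgeR adjusted p = 2.86e-06). The large-subunit genes Rpl12 and Rpl13 stood at 1.22 ± 0.07 and 1.08 ± 0.06. The gene called lower was Rpl7l1 at −0.67 ± 0.07, a protein of ribosome assembly. With the authors' totals 60 of the 86 were called higher. Genes often used as references also differed: Gapdh was at 0.51 ± 0.06 (1358 to 1767 CPM lysed, 1991 and 2402 CPM intact) and Actb at 0.29 ± 0.07, a call that ended with lysed replicates 1 and 2 only (edgeR adjusted p = 0.0591).

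A further question was whether the 2 mimics gave the same difference, which the shared direction above does not show. The sign was shared by 75.7% of genes tested. The inputs of each mimic on their own gave 3029 genes higher (24.9%) and 3511 lower (28.8%) for scrambled, and 3868 (31.8%) and 4226 (34.7%) for miR-29b. By the interaction test the signed difference was above that of scrambled under miR-29b for 2013 genes (16.5%) and below it for 1998 (16.4%). With lysed replicates 1 and 2 only, the sum of both fell from 4011 to 1905 genes. When a gap of over 2-fold was required, 420 genes (3.45%) lay above and 12 (0.0985%) below. The larger gaps thus lay almost entirely on the side of a higher intact miR-29b input. With 1 intact library per mimic, this is a difference between 2 libraries beyond the spread of the lysed ones.

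**Figure D3:**
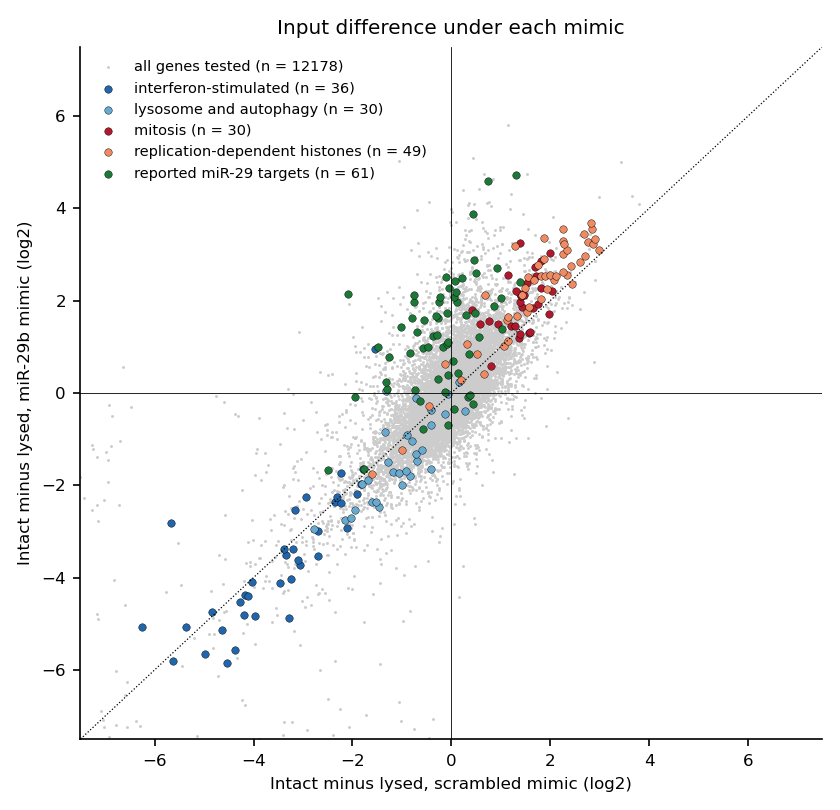
Each point is a gene, with the intact minus lysed difference under the scrambled mimic on the x axis and under miR-29b on the y axis (log2; the dotted line marks equal values; 33 genes lie outside the axes of ±7.5). Interferon-stimulated, lysosomal, mitosis and histone genes lie in the same quadrant under both mimics, lower left or upper right, with Trim25 and a few others outside it, while most of the 61 reported miR-29 targets lie above it.

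Among genes of at least 5 CPM in the higher intact library, the 6 largest gaps were Klhl28, Arrdc3, Ccne2, Spin4, Taf7 and Rnd3, all above. Klhl28, a Kelch-domain protein, was at 1.23 to 2.32 CPM in the lysed inputs (median 1.66), 1.02 CPM in the intact scrambled input and 44.4 CPM in the intact miR-29b input, a gap of 6.09 between the differences (edgeR adjusted p = 4.4e-07). Arrdc3, an arrestin-family adaptor, was at 4.38 to 7.80 CPM (median 6.24), 16.3 CPM and 283.7 CPM (gap 4.67). The scrambled library lay below the lysed range for Klhl28 and above it for Arrdc3, and the miR-29b library stood far above it in both. Spin4 had a gap of 4.60, the basal transcription factor subunit Taf7 of 4.55 and Rnd3 of 4.16. Without the intact miR-29b input the differences of Klhl28, Taf7 and Spin4 turned to −1.05, −0.95 and −0.44.

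The list of 61 reported miR-29 targets was, like the others, chosen with earlier results of these data known. Of the 61, 17 (27.9%) were called higher under both mimics and 4 lower (6.56%), which is near the background of 25.7% for the higher calls. By the interaction test 49 of the 61 were larger under miR-29b and 3 smaller, against 16.5% and 16.4% over all genes tested. Their median difference was 1.32 under miR-29b and −0.08 under scrambled. Mcl1, an inhibitor of apoptosis, was at 73.0 to 86.4 CPM in the lysed inputs (median 77.0), 47.7 CPM in the intact scrambled and 298 CPM in the intact miR-29b input, below all lysed libraries under one mimic and above all under the other. It was not called, and without the intact miR-29b input its difference was −0.75 (edgeR adjusted p = 0.00012). Tet3, a DNA demethylase, was at 18.9 to 31.4 CPM (median 26.4), 36.1 CPM and 354.5 CPM, and the related Tet1 and Tet2 had differences of 4.73 and 4.60 under miR-29b against 1.30 and 0.74 under scrambled. Col1a1, the main chain of fibrillar collagen, was at 189.9 to 240.0 CPM (median 220.4), 217 CPM and 1172 CPM, and was not called. Of 18 collagens 13 were larger under miR-29b and 0 smaller, with medians of 1.53 under miR-29b and −0.42 under scrambled. Called higher were 3 (16.7%), Col5a1 and Col12a1 among them, at 1.75 ± 0.36 and 1.35 ± 0.26. Called lower were also 3 (16.7%), among them Col6a1 at −0.63 ± 0.07. Both shares were below the 25.7% and 28.8% over all genes tested. With same-numbered inputs summed as the replicate block, 44 targets and 11 collagens passed upward, since the sum takes both mimics as 1 sample. Without the intact miR-29b input, 13 targets were higher and 25 lower, and 2 collagens were higher and 12 lower. Without the intact scrambled input, 47 targets were higher and 7 lower, and 13 collagens were higher and 4 lower. Outside the target list, Hba-a1, Kbtbd8, Plag1 and Scml2, which are among the 10 largest upward calls of at least 5 CPM, also had gaps of 3.21, 4.10, 3.79 and 3.10 between the mimics.

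Genes of the miRNA silencing machinery showed the same pattern in part. Of 27, 14 were called higher (51.85%) and 1 lower (3.7%), against 25.7% and 28.8% over all genes tested. By the interaction test 14 were larger under miR-29b and 3 smaller, against 16.5% and 16.4% over all genes tested. Without the intact miR-29b input 13 were higher and 3 lower, and without the intact scrambled input 19 and 3. Tnrc6a, the Argonaute partner that recruits deadenylases, was at 3.46 under miR-29b and 0.73 under scrambled, Dicer1, which cuts miRNA precursors, at 1.41 ± 0.19 over both mimics, and Ago2, the slicing Argonaute, at 0.66 ± 0.07 with no gap between mimics that passed. The gene lower was Mov10, an RNA helicase that interferon also induces, at −1.96 ± 0.10.

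The gap between mimics in the inputs was larger for genes recovered by the miR-29b pulldown. Over the 12178 genes, which are not independent replicates, the gap correlated with the miR-29b minus scrambled difference of the lysed pulldowns at Pearson r = 0.402 and Spearman rho = 0.291, with no library used on both sides. For the 326 genes whose pulldown difference was over 3 on the log2 scale the median input difference was 1.77 under miR-29b and −0.00089 under scrambled. At the other end, the 104 genes with a pulldown difference of −2 or less had medians of 1.17 and 0.915. In the authors' deposited table, predicted miR-29 sites of any kind are marked for 36.7% of the 420 genes with a gap of over 2-fold, against 4.09% of all genes tested, and 8mer sites for 15.5% against 1.19%. The part of pulldown recovery in the gap between mimics was not tested.

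**Figure D4:**
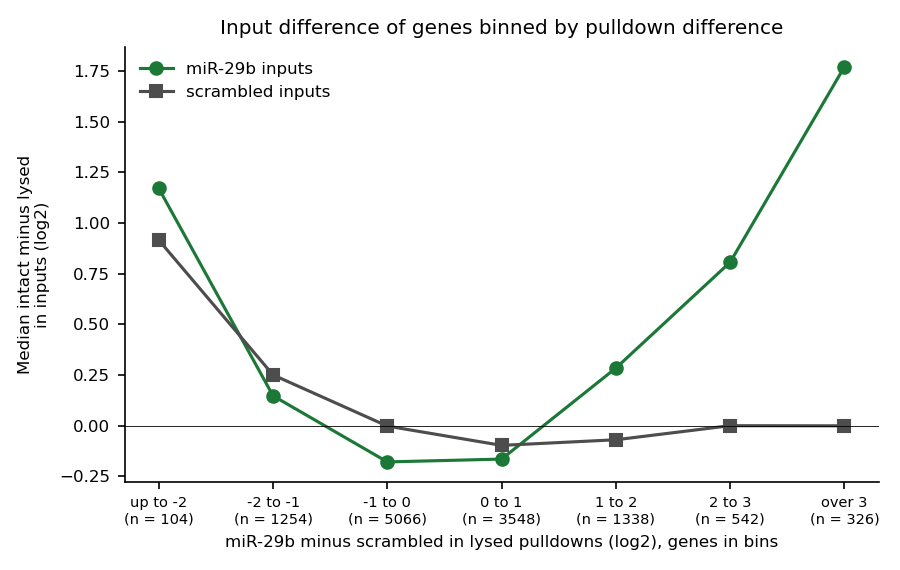
Genes are binned on the x axis by the log2 difference of miR-29b minus scrambled in the lysed pulldowns, and the y axis gives the median log2 difference of intact minus lysed inputs under each mimic (green circles, miR-29b; grey squares, scrambled). The miR-29b line climbs to 1.77 in the highest bin of 326 genes, where the scrambled line lies at −0.00089.

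The same split of replicates in the pulldowns gave another picture. With both mimics together 0 of 12600 genes were called in either direction (0% each) by edgeR, 1195 had an unadjusted p under 0.05, and DESeq2 called 0 higher and 1 lower. For the miR-29b pulldown alone, replicate 4 was higher than replicates 1 to 3 for 1129 genes (8.96%) and lower for 2060 (16.3%). In the scrambled pulldown alone 0 genes passed in either direction (edgeR), with 41 at an unadjusted p under 0.05. The interaction itself passed for 143 genes upward and 766 downward (1.13% and 6.08%). Each mimic has 1 replicate 4 pulldown, so these tests compare single libraries against the spread of replicates 1 to 3. Without replicate 4 of the scrambled pulldown 1125 genes were called higher and 2091 lower; the same step for the miR-29b pulldown left 0 and 0. The library labelled scrambled pulldown replicate 4 thus lay with the lysed libraries of its group, and the deposited headers alone put it in the intact set.

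Gene by gene this split was plain. Interferon-stimulated genes summed to 5902 CPM in replicate 4 of the scrambled pulldown, against 8605, 5638 and 5963 CPM in replicates 1 to 3, and to 5079 CPM in replicate 4 of the miR-29b pulldown, against 18610 to 21360 CPM in its replicates 1 to 3. Ifit1 was at 10.9 CPM in replicate 4 of the miR-29b pulldown and at 256.7 to 518 CPM in the others of its group, but at 437 CPM in replicate 4 of the scrambled pulldown, between the 420 and 718 CPM of its group. Cenpa was at 89.5 CPM in replicate 4 of the miR-29b pulldown, against 19.3 to 25.1 CPM, and at 32.9 CPM in that of the scrambled pulldown, against 21.1 to 36.8 CPM. The median of the interferon list in the pulldowns was −3.98 under miR-29b and −0.19 under scrambled, and that of the mitosis list 1.93 and 0.19.

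Inputs of the nuclear and cytoplasmic fractions, with 1 library for each fraction and mimic, matched neither set in full. Interferon-stimulated genes summed to 7616 to 12480 CPM in these 4 libraries, near the lysed inputs, whereas mitosis genes summed to 1654 to 2433 CPM, at or above the intact inputs. The fraction table lists other genes in part and was scaled on their own, so the levels are set side by side only.

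**Figure D5:**
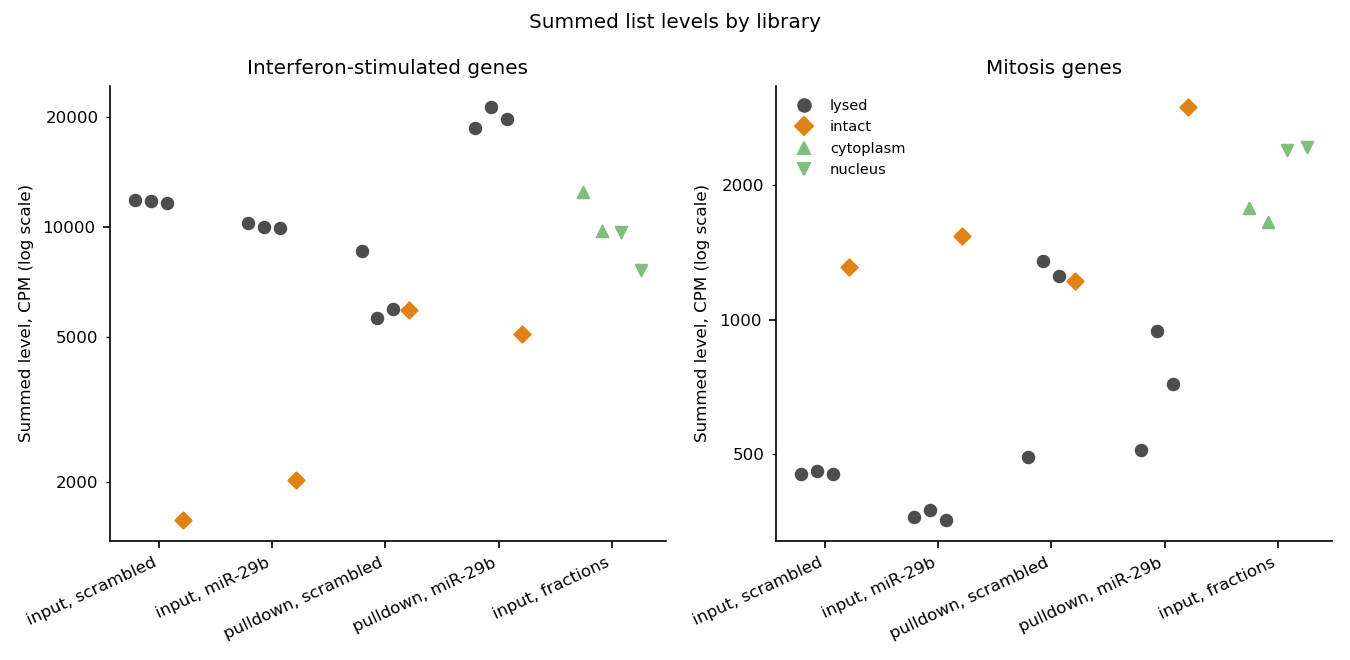
Summed CPM of the tested interferon-stimulated genes (left) and mitosis genes (right) on log axes in each whole-cell input and pulldown and in the fraction inputs; circles are lysed, diamonds intact, and triangles fractions. The intact inputs lie at 1570 and 2020 CPM on the left and at 1312 and 1539 CPM on the right, apart from all lysed inputs, while the intact diamond of the scrambled pulldown lies among the lysed circles of its group.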

How the data were processed

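RNA sequencing of whole-cell inputs and pulldowns (16 libraries) and of nuclear and cytoplasmic fractions (8 libraries) was deposited as tables of counts per gene. Reads were aligned with STAR 2.3.0 to build mm10, per the submitters' processing notes; how reads were counted, with or without strand, and how shared reads were treated was not given in those sources. The authors also deposited CPM values, which per the file headers are normalized; they were used for the authors' library totals, in which the listed genes hold 74.24% to 80.58%. The nuclear and cytoplasmic tables were the same file. Of 14052 lines, 518 repeated a gene and were left out, with the first line of each gene kept. That left 13534 genes, of which filterByExpr removed 1356.

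The deposited counts of the 8 inputs were fitted with edgeR 4.0.16 (R 4.3.3) by its quasi-likelihood test, with TMM factors and terms for mimic and procedure, with Benjamini-Hochberg adjustment over 12178 genes. The gap between mimics was the interaction term. Standard errors are the log2 difference over the root of F. Limma 3.58.1 and DESeq2 1.42.0 served as alternatives, and the tests were checked on counts simulated with the same spread for all genes. Changes of 1.5-, 2- and 4-fold were recovered in 20%, 90% and 98% of cases by the main test. For the interaction test the shares were 4%, 16% and 92%, so a gap that did not pass can have been missed. Same-numbered lysed inputs of the 2 mimics deviated together (r of 0.472, 0.341 and 0.146 for replicates 1, 2 and 3). Other pairs gave −0.401 to 0.132, so replicate 3 was near an unmatched pair. Alternative fits took the numbers as pairing the inputs. The main fit held no such term, so its p-values take all inputs as separate.

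Members and gene lists were chosen with earlier results of these data known. The naming rule took the 10 highest and 10 lowest called genes of at least 5 CPM, up to 3 called members per list, the 6 largest gaps between mimics and a fixed set; other named genes were chosen after their values were seen. A few genes picked by this rule are not reported here. Coordinates and sequences are RefSeq's on GRCm38.p6, with 8495 tested genes matched to a promoter window.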

Additional observations from a re-analysis of the deposited data

Results flagged for a closer look

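In 3 of 109 genes examined 1 of the 6 lysed inputs lay far from the other 5, and chance gives this in about 1 in 20 groups, so 3 is no more than chance gives. Cenpa was at 38.79 CPM in miR-29b replicate 2, Kbtbd8 at 2.305 CPM in scrambled replicate 2 and Ago2 at 133.8 CPM in miR-29b replicate 2. The intact libraries lay above these values in all 3 genes.

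In 24 named genes the intact minus lysed difference under miR-29b differed from that under scrambled by over 2-fold in the interaction test. Isg15 was the one with a more negative difference under miR-29b, by −1.60 on the log2 scale. Of the antiviral genes among the 24, Rsad2 and Trim25 had a higher difference under miR-29b, by 2.85 and 2.503. The list they come from went more the other way. Over its 36 genes, the interaction test without a 2-fold requirement put 13 below scrambled and 6 above, with a median gap of −0.19. Over all genes tested the shares were 16.4% below and 16.5% above. Reported miR-29 targets and matrix genes were among those higher under miR-29b, by 3.43 for Tet1, 3.86 for Tet2, 3.44 for Tet3, 2.72 for Mcl1, 2.63 for Col1a1, 2.09 for Col5a1 and 2.43 for Fbn1. The cell cycle genes Ccne2 and Top2a stood at 4.65 and 1.86, and the noncoding Xist and Neat1 at 1.58 and 1.90. Klhl28 stood at 6.09, Arrdc3 at 4.665, Spin4 at 4.60, Taf7 at 4.55, Rnd3 at 4.16, Kbtbd8 at 4.10, Plag1 at 3.79, Hba-a1 at 3.21 and Scml2 at 3.10. The silencing factor Tnrc6a stood at 2.73.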

How the results depend on the processing

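With the authors' library totals 1924 genes were higher, and with a test for differences over 2-fold 330 were higher, 696 lower and 432 dependent on the mimic. With lysed replicates 1 and 2 alone, chosen after seeing the data, 1905 depended on it. DESeq2 called 1 gene lower in the pulldowns. Leaving out 1 input at a time gave 2847 to 3857 higher, 3211 to 4259 lower and 3226 to 4177 dependent on the mimic; leaving out 1 pulldown gave 0 to 1125 higher and 0 to 2091 lower. The random replicate block gave 3444 higher and 3790 lower (3215 and 3584 without it in the same voom fit, correlation −0.376), and same-numbered inputs summed as replicate block gave 3783 and 4022; a fixed block could not be fitted, since each number holds 1 procedure. Trim25 turned to 0.0077 with RLE factors, 0.0045 at 2 CPM in 2 libraries, 0.0054 with DESeq2 and 0.29 with the summed replicate block. Atg5 and Pcna turned to −0.024 and −0.11 with the authors' totals. Without 1 input, the differences of some genes changed sign. Without miR-29b replicate 4 the lowest values were −1.05 for Klhl28, −0.44 for Spin4, −0.95 for Taf7, −0.75 for Mcl1 and −0.11 for Col1a1, against highest values of 5.03, 4.145, 3.60, 1.97 and 2.52 without scrambled replicate 4. Cebpa ranged from −1.585 to 0.32, Neat1 from −1.38 to 0.52, Fos from −1.03 to 0.40, Trim25 from −1.54 to 0.96 and Pcna from −0.096 to 0.29. With 1 intact input left out, the fitted difference is that of the other mimic alone. Why the mimics differed in these genes was not tested. Thinning every input to 20844587 counts gave 2950 higher and 3303 lower. With 1 intact library per mimic, the spread of intact libraries rests on the lysed ones and on the gap between mimics.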
